A study of Mus musculus with 27 samples.

Results

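The genes described here encode 2 families of nuclear RNA-binding proteins, the heterogeneous nuclear ribonucleoproteins (hnRNPs) and the serine/arginine-rich (SR) splicing factors, in RAW264.7 cells, a mouse macrophage line. They were chosen by name: every protein-coding gene whose symbol begins with Hnrnp, or with Srsf and a number, apart from 1 hnRNP gene left out by the rule. This gave 30 of the 55483 genes in the table, 19 hnRNP and 11 SR genes, and 3 pseudogenes with matching names were not counted. Cells were treated for 6 h with the solvent DMSO, with 1 µg/ml LPS (lipopolysaccharide, an outer membrane component of Gram-negative bacteria, here given with DMSO), or with LPS and 10 µM TM7nox, a tanshinone mimic studied as an inhibitor of RNA binding by HuR. For each treatment there were 4 total RNA libraries, 4 libraries of RNA recovered by immunoprecipitation with an anti-HuR antibody (RNA immunoprecipitation, RIP) and 1 library recovered with control IgG, which carries replicate number 3. The groups are written below as DMSO, LPS and LPS+TM7nox. All groups are of 1 immortalised line, RIP RNA came from a detergent lysate cleared by centrifugation while total RNA came from whole cell pellets, and no arm received TM7nox without LPS. The labels number the replicates but do not say whether they were separate cultures, so the p-values measure the spread between these samples, which may be in part technical.

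SR proteins carry RNA recognition motifs and a domain rich in arginine and serine, bind exonic enhancers, and recruit the spliceosome. Most hnRNPs coat nascent transcripts and bind silencer elements in exons and introns, so that the choice of an exon often depends on the balance between both families. HuR, the product of Elavl1, binds uridine-rich and AU-rich stretches, largely in 3′ UTRs and introns, and raises the stability or translation of many of its targets. Several splicing factor genes produce transcripts with poison exons that are degraded, and counts per gene do not separate those from the coding transcripts.

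Depth ranged from 2728534 counts in DMSO RNA replicate 1 to 41449233 counts, and the other RNA libraries held between 16258731 and 28285856 counts. The IgG library of LPS+TM7nox, at 8873091 counts, was the shallowest of the 3 IgG libraries. All 10 macrophage markers examined were detected, from Mrc1, with a median of 4.49 CPM (counts scaled by library size, on 1 scale for all libraries) in RNA, to Lyz2, with 3090 CPM. The summed level of 17 markers of other cell types was between 0.547 and 2.78 CPM in the RNA libraries, and in RIP between 0.88 and 1.65 CPM in DMSO and between 3.18 and 5.38 CPM in the LPS and LPS+TM7nox libraries. Epcam, Krt8, Hba-a1 and Hbb-bs were at 0 in RNA.

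Because HuR binds uridine-rich RNA, the most uridine-rich 30 bases of the annotated 3′ UTR are shown for 10 members with high or low recovery, which are not all members at either end of the range described below. Letters are in lower case except uridine runs of at least 5, which are in capitals, and all sequences are read 5′ to 3′ on the transcript from the GENCODE M39 annotation on GRCm39. The first 4 are among the members most strongly recovered with anti-HuR.
Hnrnpl: UUUUUUUUUUUUUUUUcuugUUUUUUUUUU
Hnrnpa0: ucUUUUUUUUUUUUUUUccccuuccuguuu
Srsf10: gguuuuguuuuguuguuugUUUUUUcuguu
Hnrnpul1: uuaugcUUUUUUUUUUUUUUUUUUaauuuu
Hnrnpc, whose RIP level differed between all 3 treatments, follows.
Hnrnpc: aaagUUUUUcaauuacaUUUUUUUUUUaau
The last 5 come from members recovered at or below their level in total RNA.
Srsf3: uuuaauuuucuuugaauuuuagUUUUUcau
Hnrnpll: UUUUUUUgggUUUUUUUUUUUUUUUUUUUU
Hnrnpr: UUUUUUUUUUUUUUUUUUUUUUUUUUUUUU
Hnrnpm: uuuguaUUUUUUcuuguuaaccauuuuaau
Hnrnpdl: aauuaguuccucuguuuuacuuuguccuuu
These windows lie at chr7:28521404-28521433 (plus strand) for Hnrnpl, chr13:58274589-58274618 (minus strand) for Hnrnpa0, chr4:135592139-135592168 (plus strand) for Srsf10 and chr7:25421147-25421176 (minus strand) for Hnrnpul1. The Hnrnpc window is at chr14:52311707-52311736 (minus strand). Those of the weakly recovered members are at chr17:29260633-29260662 (plus strand) for Srsf3, chr17:80336665-80336694 (minus strand) for Hnrnpll, chr4:136074590-136074619 (plus strand) for Hnrnpr, chr17:33865401-33865430 (minus strand) for Hnrnpm and chr5:100182684-100182713 (minus strand) for Hnrnpdl. All 10 windows are in the 3′ UTR of the canonical transcript. Long uridine runs stood in members of both kinds: Hnrnpr and Hnrnpll, both weakly recovered, held runs as long as those of Hnrnpl, while the Hnrnpdl window held none. A longer 3′ UTR offers more windows to choose from, and those of Hnrnpr and Hnrnpll have 19419 and 2441 bases, against 362 in Hnrnpl. Over the whole 3′ UTR, UUUUU stood at 7.7 per kb in Hnrnpr and 18.8 in Hnrnpll, against 88.4 in Hnrnpl.

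In total RNA of DMSO-treated cells, the 6 members with the highest level per length were all hnRNPs. Hnrnpab, an AU-rich RNA and DNA binding protein, was the most abundant at 78.5 ± 22.8 CPM per kb of exon (SD, n = 4). Hnrnpa1 followed at 77.4 ± 15.4, within the spread of Hnrnpab, and then Hnrnpa3 at 64.3 ± 14.1, Hnrnpu at 53.8 ± 5.12, Hnrnpa2b1 at 49.1 ± 5.9 and Hnrnpm at 45.1 ± 6.95 CPM per kb. The most abundant SR gene was Srsf1 at 30.3 ± 1.74 CPM per kb, followed among SR genes by Srsf6 at 26.3 ± 3.33 and Srsf2 at 22.2 ± 3.64, which differed by little more than 1 SD. At the low end were Hnrnpll at 2.96 ± 0.228, Srsf4 at 1.18 ± 0.111 and Hnrnph3 at 1.01 ± 0.361 CPM per kb. Srsf12, a relative of Srsf10, was listed at 0 in all 12 RNA libraries, which allows a level of up to 0.0118 CPM over their pooled 253738508 counts (counting error only). It had 13 counts in all 27 libraries and passed no filter, so 29 of the 30 members were tested in every comparison below. Per-length values divide by all annotated exon bases, which lowers genes with long alternative ends such as Hnrnpr (23399 bases).

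Hnrnpab is shown in full as the member highest per length. Hnrnpab RNA stood at 667, 578, 311 and 525 CPM in DMSO (replicates 1 to 4 in order, here and below), 859, 599, 408 and 570.5 in LPS, and 573, 471, 287 and 461 in LPS+TM7nox. In RIP, Hnrnpab stood at 658, 411, 341 and 412 CPM in DMSO, 752, 746, 528 and 691 in LPS, and 565, 764, 458 and 648 in LPS+TM7nox, and IgG gave 226, 258 and 248 CPM in the same order. In RNA the same replicate, number 3, was the lowest in each treatment, and all 6 groups overlapped. The IgG libraries lay below every RIP library, and Hnrnpab was called higher with anti-HuR than with IgG (log2 1.22 ± 0.22 SE, FDR 6.98e-05), a call lost with scaling by library totals (0.18, FDR 0.401). Srsf12 is shown as the lowest: RIP libraries held 0.0338 and 0.165 CPM in DMSO replicates 1 and 2 and 0.105 CPM in LPS replicate 2, all other RIP and RNA libraries held 0, and the 3 IgG libraries held 0.0519, 0.0639 and 0.086 CPM. At these counts no difference was detectable.

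The design asks first which of these mRNAs were recovered with HuR beyond their abundance. Among the SR genes, 7 of the 10 tested, Srsf1, Srsf2, Srsf4, Srsf5, Srsf6, Srsf9 and Srsf10, were called higher in RIP than in RNA in DMSO, and none lower. Among the 19 hnRNP genes, 9 were called higher and 5 lower, and the values of both families overlapped, from -0.21 to 5.32 for SR and from -1.10 to 4.47 for hnRNP genes. Whether the families differ was not tested. Calls are at an adjusted p (FDR) under 0.05 in edgeR's quasi-likelihood test over all genes. In DMSO this made 16 members higher and 5 lower, against 37% and 33.4% (70.4% in either direction) of the 14311 genes tested, and a median log2 difference of 0.69 against 0.04 over all genes. The split was 15 and 7 in LPS (background 32.9% and 30.8%, 63.7% in all), where Srsf7 and Srsf11 were called lower, and 16 and 5 in LPS+TM7nox (background 35.2% and 34.8%, 69.9% in all). With RLE size factors neither Srsf7 nor Srsf11 was called lower in LPS. These differences are relative to the other genes in each library. With scaling by library totals alone, the median of all genes moved by -0.761, -0.998 and -0.982 on the log2 scale in the 3 treatments. The splits became 10 and 12 (26.4% and 49.7% of all genes), 9 and 15 (19.8% and 56.8%), and 12 and 13 (23.2% and 55.2%). Of the members called higher, Srsf4 and Hnrnpa3 turned to below RNA in all 3 treatments, Hnrnpa1 in DMSO and LPS+TM7nox, Hnrnpc in DMSO and Hnrnph1 in LPS. With the replicate numbers as a block, Hnrnph2 was also called lower in DMSO (FDR 0.0185) and LPS (0.00155), Hnrnpul2 lower in LPS (0.016) and LPS+TM7nox (0.0173), and Hnrnpab higher in LPS+TM7nox (0.00369). Relative to the median of all genes, 17, 18 and 20 of the 29 members were above it in DMSO, LPS and LPS+TM7nox.

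**Figure D1:**
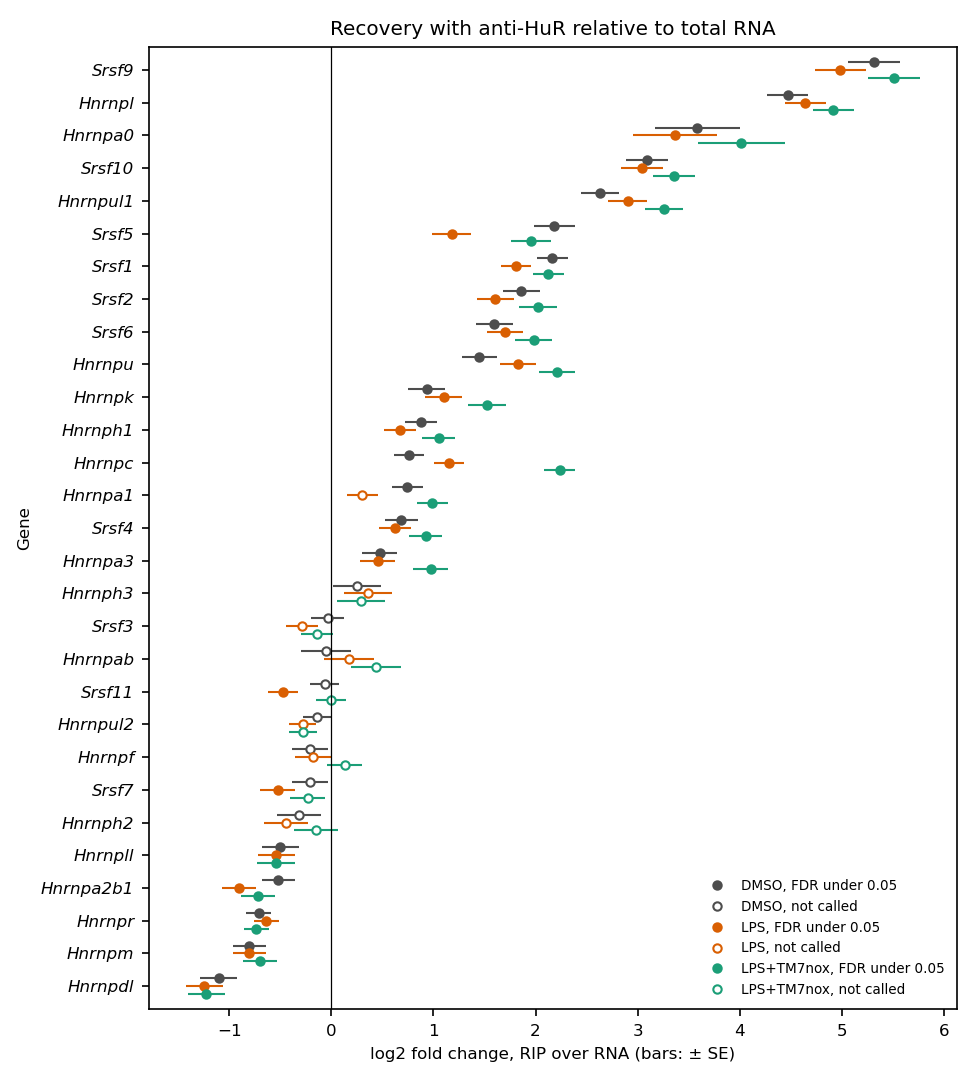
RIP over RNA for the 29 tested members in each treatment, as the log2 fold change with its standard error, filled where the FDR was under 0.05 and ordered by the value in DMSO. Srsf9, Hnrnpl, Hnrnpa0, Srsf10 and Hnrnpul1 lie at 2.63 or above in all 3 treatments and Hnrnpdl lies lowest. With scaling by library totals Srsf4 and Hnrnpa3 fall below 0 in all 3.

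Srsf9 (SRp30c), a short SR protein, was recovered most strongly of all members. Srsf9 RNA stood at 81, 79.9, 72 and 83.2 CPM in DMSO, 90.3, 67.3, 61.7 and 67.4 in LPS, and 54.1, 41.3, 40.9 and 46.7 in LPS+TM7nox. In RIP, Srsf9 stood at 2410, 2311, 2851 and 4030 CPM in DMSO, 1796, 2335, 2296 and 2604 in LPS, and 1550, 2422, 1454 and 2999 in LPS+TM7nox, and IgG gave 59.1, 53.1 and 37.2 CPM in the same order. Every RIP library was above every RNA and IgG library by a wide margin, and the IgG level was close to that in RNA. RIP over RNA was 5.32 ± 0.25 (log2 fold change ± SE, FDR 3.33e-15) in DMSO, 4.99 in LPS and 5.51 in LPS+TM7nox, and the ratios of same-numbered libraries ran from 19.9 to 64.2. Against IgG, the difference was log2 5.59 ± 0.33 SE, FDR 4.73e-11. The gene lies at chr5:115465189-115476335 and overlaps Gatc on the other strand, and the sources used here do not state whether counting used the strand.

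Srsf10, which acts as a splicing repressor when dephosphorylated, came next among the SR genes. Srsf10 RNA stood at 142, 118, 116 and 111 CPM in DMSO, 106, 89.9, 89.7 and 84.9 in LPS, and 73.2, 66.4, 66.9 and 59.4 in LPS+TM7nox. In RIP, Srsf10 stood at 934, 1031, 1129 and 717 CPM in DMSO, 735, 981, 825 and 488 in LPS, and 637, 943, 721 and 472 in LPS+TM7nox, and IgG gave 89.6, 65.1 and 59.9 CPM in the same order. Its RIP libraries did not overlap RNA or IgG in any treatment, at log2 3.10 ± 0.20 SE, FDR 1.25e-12 in DMSO and 3.36 in LPS+TM7nox. Srsf10 overlaps Pnrc2 on the other strand.

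Srsf1 (SF2/ASF), the founding SR protein, and Srsf5 (SRp40), an enhancer-binding SR protein, were recovered at a lower ratio. Srsf1 RNA stood at 169, 186, 181 and 164 CPM in DMSO, 142, 158, 149 and 144 in LPS, and 102, 117, 98.5 and 97.4 in LPS+TM7nox. In RIP, Srsf1 stood at 630.4, 715, 766 and 786 CPM in DMSO, 470.2, 581, 571 and 451 in LPS, and 343, 522, 492 and 488 in LPS+TM7nox, and IgG gave 127, 116 and 87.9 CPM in the same order. For Srsf1 the groups were separate in all treatments, with log2 2.17 ± 0.15 SE, FDR 3e-12 in DMSO. Srsf5 RNA stood at 61.3, 69.8, 55.1 and 58.8 CPM in DMSO, 105, 72.7, 91.9 and 88.7 in LPS, and 124, 63.3, 86.3 and 85.9 in LPS+TM7nox. In RIP, Srsf5 stood at 173, 253, 341 and 261 CPM in DMSO, 197, 183, 247 and 181 in LPS, and 365, 269, 326 and 444 in LPS+TM7nox, and IgG gave 86, 102 and 105 CPM in the same order. Srsf5 was also separate from RNA and IgG in every treatment, at log2 2.18 ± 0.20 SE, FDR 5.71e-10 in DMSO and log2 1.18 ± 0.19 SE, FDR 1e-05 in LPS, the lowest of its 3 values. Scaled by library totals, the Srsf5 value in LPS was 0.16 (FDR 0.516).

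The other SR genes with higher recovery were Srsf2 (SC35), a component of nuclear speckles, at 1.86 in DMSO, Srsf6 (SRp55) at 1.60 and Srsf4 (SRp75) at 0.69. Srsf3 (SRp20) and Srsf7 (9G8), which shuttle and serve as adaptors for mRNA export, and the SR-like Srsf11 were not above RNA. Srsf3 RNA stood at 107, 127, 135 and 125 CPM in DMSO, 107, 126, 153 and 135 in LPS, and 75.2, 90.4, 104 and 89 in LPS+TM7nox. In RIP, Srsf3 stood at 114, 114, 113 and 106 CPM in DMSO, 120.2, 105, 111 and 91.9 in LPS, and 89.7, 71.8, 97.8 and 74 in LPS+TM7nox, and IgG gave 122, 135 and 94.9 CPM in the same order. Srsf3 in RIP overlapped RNA in each treatment, and no RIP over RNA difference was called, the largest being log2 -0.29 ± 0.16 SE, FDR 0.118 in LPS. Srsf7 RNA stood at 84, 85.9, 76.1 and 82.2 CPM in DMSO, 98.7, 89.2, 118 and 115 in LPS, and 59.9, 60.4, 75.3 and 78.1 in LPS+TM7nox. In RIP, Srsf7 stood at 55.2, 63.6, 79.4 and 64 CPM in DMSO, 60.6, 58.8, 97.4 and 75.8 in LPS, and 47.9, 51.7, 81.2 and 58.5 in LPS+TM7nox, and IgG gave 90.8, 124 and 95.5 CPM in the same order. Srsf7 in RIP overlapped RNA, and all 12 RIP libraries lay below the IgG library of their treatment. It was called lower than RNA in LPS (log2 -0.53 ± 0.17 SE, FDR 0.0101), a call lost without LPS RIP replicate 2 (FDR 0.0516) and with RLE size factors (FDR 0.0617), and lower than IgG (log2 -0.66 ± 0.16 SE, FDR 0.00136).

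Among hnRNP genes, Hnrnpl, which binds CA-rich RNA and controls alternative exons of Ptprc (CD45), led. Hnrnpl RNA stood at 109, 150.4, 128 and 141 CPM in DMSO, 89.5, 128, 118 and 120.2 in LPS, and 95.8, 116, 101 and 103 in LPS+TM7nox. In RIP, Hnrnpl stood at 2536, 2449, 2822 and 3061 CPM in DMSO, 2575, 2853, 3113 and 2857 in LPS, and 3048, 3989, 2675 and 3113 in LPS+TM7nox, and IgG gave 159, 141 and 113 CPM in the same order. RIP exceeded RNA in every same-numbered pair, by ratios from 16.3 to 34.3, and the 3 IgG libraries were near the RNA level. The difference was log2 4.47 ± 0.20 SE, FDR 1.04e-15 in DMSO and log2 4.38 ± 0.23 SE, FDR 1.73e-11 against IgG. Hnrnpll, its paralogue, was not above its RNA level. Hnrnpll RNA stood at 41.3, 43.4, 48.7 and 47.7 CPM in DMSO, 27.4, 37.4, 42.5 and 45.7 in LPS, and 26.1, 24.3, 28.9 and 29.5 in LPS+TM7nox. In RIP, Hnrnpll stood at 24.8, 35.4, 30 and 28.3 CPM in DMSO, 21.7, 30.9, 24.6 and 28.3 in LPS, and 14.7, 22.5, 22.5 and 16.6 in LPS+TM7nox, and IgG gave 34.8, 33.8 and 18.4 CPM in the same order. Hnrnpll in RIP lay below RNA without overlap in DMSO and LPS+TM7nox and overlapped it in LPS, with log2 -0.50 ± 0.18 SE, FDR 0.0162 in DMSO. That call was lost with RLE size factors (FDR 0.0723), as were those in LPS (0.0772) and LPS+TM7nox (0.11). It was also lost without DMSO RIP replicate 1 (FDR 0.0565), in LPS without RNA replicate 4 (0.0557) and in LPS+TM7nox without RIP replicate 1 (0.0614), and no difference from IgG was called (log2 -0.21, FDR 0.26).

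Hnrnpa0, an intronless gene whose protein binds AU-rich elements of inflammatory mRNAs, was the second hnRNP in order. Hnrnpa0 RNA stood at 65.1, 77.5, 64.5 and 86.8 CPM in DMSO, 56.1, 59.4, 75.1 and 81.4 in LPS, and 42.7, 46, 43.4 and 63.2 in LPS+TM7nox. In RIP, Hnrnpa0 stood at 515, 571, 649.9 and 1525 CPM in DMSO, 471, 626, 574 and 1136 in LPS, and 364, 668, 508 and 1662 in LPS+TM7nox, and IgG gave 47.7, 46.7 and 31 CPM in the same order. RIP was separate from RNA and IgG, but RIP replicate 4 was the highest in each treatment, at 1525 CPM in DMSO against 649.9 CPM in the next library. RIP over RNA was log2 3.58 ± 0.41 SE, FDR 3.43e-08 in DMSO, with same-numbered ratios from 7.36 to 17.6, and 3.08 without RIP replicate 4. Hnrnpul1, a nuclear protein related to scaffold attachment factor A, reached 2.63 in DMSO, 2.90 in LPS and 3.26 in LPS+TM7nox, and Hnrnpu, which is that factor, 1.45, 1.83 and 2.21.

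Hnrnpk, a poly(C) binding protein with KH domains, and Hnrnpc, a core hnRNP that binds uridine tracts, were recovered moderately. Hnrnpk RNA stood at 255, 291, 260 and 284 CPM in DMSO, 319.6, 355, 366 and 384 in LPS, and 247, 293, 306 and 290.4 in LPS+TM7nox. In RIP, Hnrnpk stood at 519.5, 454, 587 and 367 CPM in DMSO, 694, 773, 1029 and 568 in LPS, and 690.4, 956, 1023 and 685 in LPS+TM7nox, and IgG gave 261, 373 and 285 CPM in the same order. Hnrnpk in RIP lay above RNA in each treatment, with log2 0.93 ± 0.18 SE, FDR 6.16e-05 in DMSO, and every RIP library was above the IgG library of its treatment. Hnrnpc RNA stood at 142, 137, 146 and 153 CPM in DMSO, 148, 148, 170 and 191 in LPS, and 132, 130, 152 and 136 in LPS+TM7nox. In RIP, Hnrnpc stood at 204, 217, 229 and 251 CPM in DMSO, 309, 348, 406 and 396 in LPS, and 530.5, 737, 636 and 739.7 in LPS+TM7nox, and IgG gave 142, 186 and 165 CPM in the same order. For Hnrnpc, RIP was above RNA in each treatment and stepped up from DMSO to LPS to LPS+TM7nox with no overlap, while RNA stayed between 130.0 and 191 CPM. RIP over RNA was log2 0.76 ± 0.15 SE, FDR 7.03e-05 in DMSO, log2 1.15 ± 0.15 SE, FDR 2.91e-07 in LPS and log2 2.23 ± 0.15 SE, FDR 2.15e-12 in LPS+TM7nox. Scaled by totals, the values for Hnrnpc were -0.03 in DMSO and 0.16 in LPS, neither called, and for Hnrnpk 0.15 in DMSO (FDR 0.388).

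Hnrnpa1 encodes a splicing silencer binding protein. Hnrnpa1 RNA stood at 250.4, 352, 227 and 309 CPM in DMSO, 289.8, 309, 297 and 316 in LPS, and 308, 291, 247 and 270.2 in LPS+TM7nox. In RIP, Hnrnpa1 stood at 393, 426, 482 and 465 CPM in DMSO, 352, 359, 432 and 352 in LPS, and 497, 596, 498 and 649.5 in LPS+TM7nox, and IgG gave 289, 278 and 250.1 CPM in the same order. The RIP libraries were above RNA in every treatment, but called only in DMSO (log2 0.74 ± 0.15 SE, FDR 0.000115) and LPS+TM7nox (log2 0.99 ± 0.15 SE, FDR 3.05e-06). In LPS the value was 0.30 (FDR 0.0812, or 0.0319 with the replicate numbers as a block), and with library totals it was near 0 in DMSO and LPS+TM7nox (-0.03 in each). Hnrnpa1 overlaps Cbx5 on the other strand. Hnrnpa3, its close relative, was called higher in all 3 (0.47, 0.45 and 0.97) and turned to -0.29, -0.55 and -0.02 with library totals. In DMSO the Hnrnpa3 call was lost without RNA replicate 1 (FDR 0.0965), RNA replicate 3 (0.0705), RIP replicate 3 (0.0698) or RIP replicate 4 (0.076). In LPS it was lost without RNA replicates 1 or 3 (0.0828 and 0.0506) or RIP replicate 3 (0.0544). Hnrnph1, which binds G-tracts, was called higher in all 3 as well (0.88, 0.67 and 1.05).

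The members recovered below their RNA level were all hnRNPs in DMSO: Hnrnpdl, Hnrnpm, Hnrnpr, Hnrnpa2b1 and Hnrnpll. Hnrnpdl, an AU-rich RNA binding protein, was the lowest. Hnrnpdl RNA stood at 66.8, 63.2, 54.4 and 63.8 CPM in DMSO, 64.1, 75, 90 and 88.8 in LPS, and 54.9, 82.3, 86.1 and 83.9 in LPS+TM7nox. In RIP, Hnrnpdl stood at 25.9, 30.6, 25.8 and 23.8 CPM in DMSO, 29.4, 27.9, 39.7 and 37.5 in LPS, and 29, 31.8, 46.2 and 28.7 in LPS+TM7nox, and IgG gave 63.8, 72.3 and 76.6 CPM in the same order. Every RIP library of Hnrnpdl was below every RNA and IgG library, with log2 -1.10 ± 0.18 SE, FDR 7.92e-06 against RNA in DMSO and log2 -1.20 ± 0.14 SE, FDR 3.1e-07 against IgG. Hnrnpm, which binds GU-rich RNA, was also low. Hnrnpm RNA stood at 429, 315, 314 and 376 CPM in DMSO, 456, 323, 395 and 433 in LPS, and 409, 347, 407 and 391 in LPS+TM7nox. In RIP, Hnrnpm stood at 192, 143, 219 and 198 CPM in DMSO, 206, 178, 273 and 261 in LPS, and 219, 205, 319 and 234 in LPS+TM7nox, and IgG gave 338, 416 and 502 CPM in the same order. No Hnrnpm RIP library reached the IgG or RNA levels of its treatment, with log2 -0.81 ± 0.16 SE, FDR 9.9e-05 in DMSO. Hnrnpa2b1, the relative of Hnrnpa1 with a role in RNA transport, lay below RNA as well. Hnrnpa2b1 RNA stood at 423, 516, 556 and 551 CPM in DMSO, 585, 534, 645 and 656 in LPS, and 461, 438, 541 and 473 in LPS+TM7nox. In RIP, Hnrnpa2b1 stood at 333, 328, 384 and 280.5 CPM in DMSO, 333, 302, 350.4 and 301 in LPS, and 319.8, 259, 394 and 224 in LPS+TM7nox, and IgG gave 515, 605 and 502 CPM in the same order. RIP and RNA of Hnrnpa2b1 did not overlap within any treatment (log2 -0.52 ± 0.17 SE, FDR 0.00734 in DMSO and log2 -0.91 ± 0.17 SE, FDR 4.01e-05 in LPS).

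**Figure D2:**
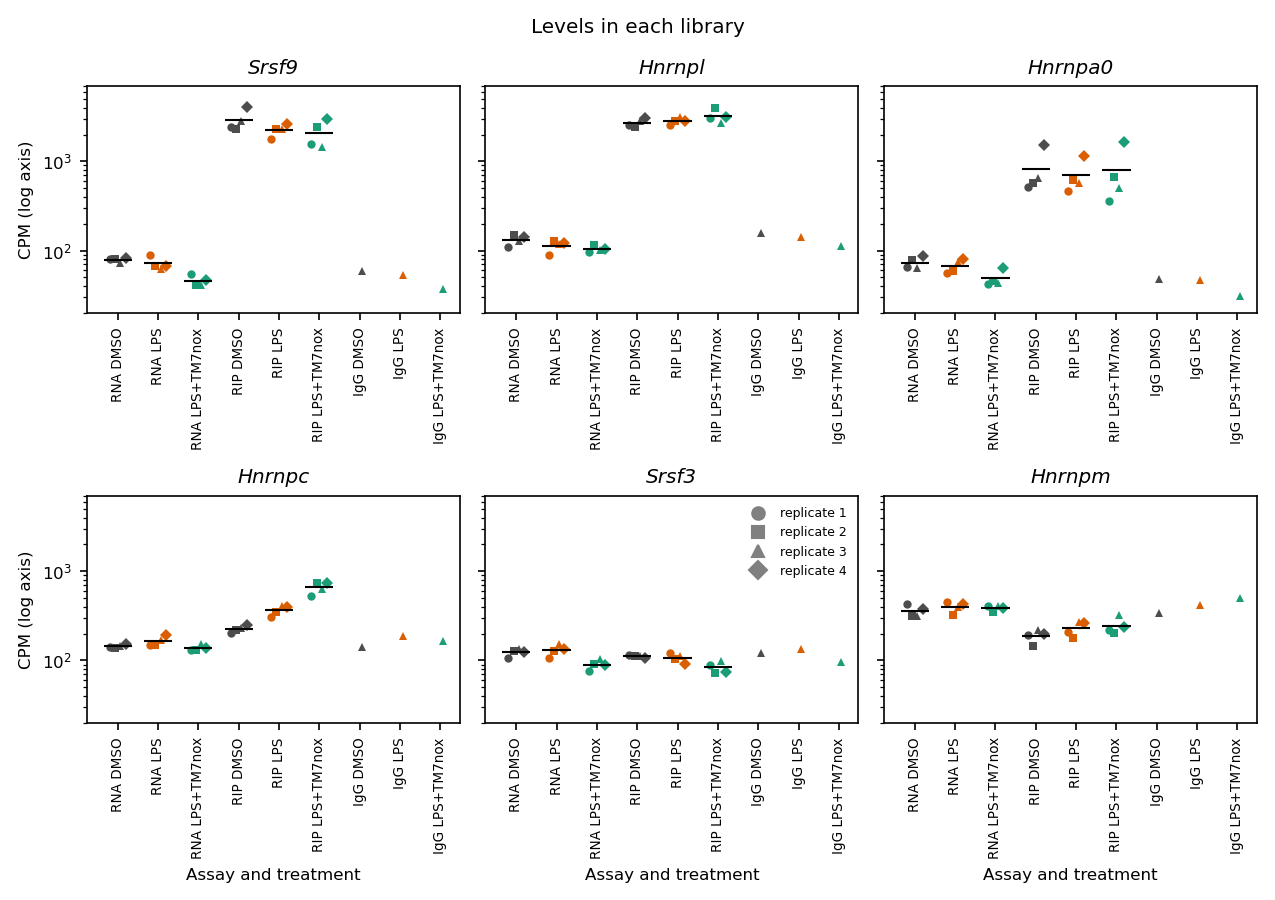
CPM of 6 members in each of the 27 libraries on a log axis, with marker shape for the replicate number, colour for the treatment and bars for group means. RIP libraries of Srsf9, Hnrnpl and Hnrnpa0 sit far above RNA and IgG, Hnrnpc RIP rises from DMSO to LPS to LPS+TM7nox, Srsf3 RIP overlaps RNA, and Hnrnpm RIP sits below IgG.

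IgG gave the background of the precipitation. Over the 29 members, the IgG level relative to RNA of the same replicate had a median of 0.962 in DMSO, 0.938 in LPS and 0.944 in LPS+TM7nox, and ran from 0.597 to 1.56. The corresponding anti-HuR medians were 1.64, 1.7 and 2.02, up to 39.6 for Srsf9 in DMSO. Over 15 libraries with treatment as a covariate, 18 members were called higher with anti-HuR than with IgG and 6 lower, against 33.8% and 34.2% (68.1% in either direction) of the 14973 genes tested. SR genes were 7 higher and 1 lower of 10, and hnRNP genes 11 and 5 of 19. With library totals the split was 9 and 14, against 19.4% and 55.8% of all genes, after a shift of -1.02 in their median. Srsf4, Hnrnpa1, Hnrnpa3, Hnrnph1 and Hnrnph3 then turned to below IgG. With the replicate block the calls of Hnrnph2 (from log2 -0.56, FDR 0.0211, to -0.10, FDR 0.537) and Hnrnph3 (from 0.56, FDR 0.025, to 0.32, FDR 0.153) were lost and Srsf11 was called higher (0.43, FDR 0.0118). The IgG side rests on 1 library per treatment, and 4 calls were lost without 1 of them. Without the DMSO IgG library these were Hnrnpa3 (FDR 0.0792) and Hnrnph3 (0.088), without the LPS one Hnrnpa3 (0.0701), Hnrnph2 (0.164) and Hnrnph3 (0.111), and without that of LPS+TM7nox Hnrnpa3 (0.275), Hnrnph1 (0.0691) and Hnrnph2 (0.0517).

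The 3′ UTRs of the members were rich in uridine runs. UUUUU occurred at a median of 10.1 per kb (overlapping matches counted, on the transcript strand), against 4.16 over the 10980 coding genes tested with an annotated 3′ UTR. Within the first 300 bases of the 3′ UTR, UUUUU was present in 25 of the 29 members (86.2%) and in 45.8% of the 9536 genes with a 3′ UTR of that length. AUUUA, a core of AU-rich elements, was present there in 13 of 29 (44.8%) and in 32.8% of genes. By gene, among the 5 most strongly recovered members, UUUUU stood at 88.4 per kb in Hnrnpl, 33.2 in Srsf9, 25.6 in Hnrnpul1, 22.4 in Hnrnpa0 and 9.5 in Srsf10. Among the 5 called below RNA in DMSO it ran from 4.2 in Hnrnpdl to 18.8 in Hnrnpll and 24.1 in Hnrnpm, and Hnrnph2, not called there, had 21.1. The median was 12 per kb in the 16 members called higher, 9.69 in the 5 called lower and 6.13 in the 8 not called. Across the 29 members, Spearman's rho between UUUUU per kb and RIP over RNA in DMSO was 0.37, it was 0.64 among 10 SR and 0.44 among 19 hnRNP genes, and 0.44 over all 10980 genes. These are correlations across genes of the same libraries, which share depth and base composition, and genes are not independent replicates. With AUUUA per kb rho was 0.1.

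**Figure D3:**
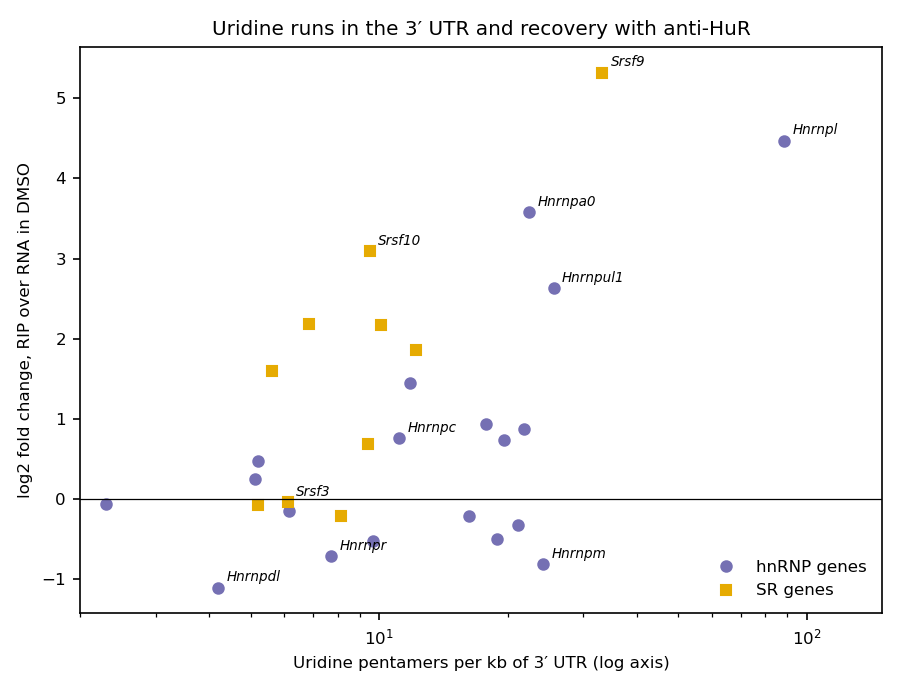
UUUUU matches per kb of annotated 3′ UTR (log axis) against log2 RIP over RNA in DMSO for the 29 members, SR genes as squares and hnRNP genes as circles. Srsf9, Hnrnpl, Hnrnpa0 and Hnrnpul1 are high on both axes and Hnrnpdl low on both, while Hnrnpm, Hnrnph2 and Hnrnpll have many runs and low recovery, and Srsf10 fewer runs (9.5 per kb) and high recovery.

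LPS changed 8 members in total RNA, 4 of each family. After 6 h, Hnrnph2, Srsf5, Hnrnpk and Srsf7 were called higher than in DMSO, and Hnrnph3, Hnrnpr, Srsf10 and Srsf1 lower. This was 4 and 4 of 29, against 20.2% and 21.7% (42% in either direction) of the 12369 genes tested, with a member median of 0.06 against -0.04 for all genes. The replicate block gave 5 and 7, adding Srsf11 above and Hnrnph1, Hnrnpl and Hnrnpll below (25.2% and 27.2% of all genes). The count of calls fell from 8 to 5 without LPS RNA replicates 1 or 3 and to 4 without LPS RNA replicate 4. With library totals the split was 1 and 11, against 13.2% and 34.4% of all genes, after a shift of -0.28 in their median. The macrophage markers moved in the same comparison, with 6 of 10 called higher and 1 lower. Of 17 markers of other cell types the 1 tested, Cdh5, an endothelial cadherin, was called higher (log2 2.44, FDR 0.0262) at a mean of 0.559 CPM. The part of these markers in the result was not tested. In bulk RNA, fewer cells of a kind and less RNA per cell cannot be told apart. The comparisons of the 3 treatments share libraries: LPS is the control of TM7nox and the treated group against DMSO.

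The rises were modest. Hnrnph2, a G-tract binding protein on the X chromosome, was the largest. Hnrnph2 RNA stood at 29.3, 33.9, 31.4 and 36.6 CPM in DMSO, 44.1, 51.2, 60.1 and 60.7 in LPS, and 37.5, 40.9, 48.6 and 46.2 in LPS+TM7nox. In RIP, Hnrnph2 stood at 18.5, 21.4, 33.7 and 24.6 CPM in DMSO, 26.4, 39.1, 59 and 35.9 in LPS, and 27.7, 35.6, 56 and 41.2 in LPS+TM7nox, and IgG gave 32, 65.4 and 56.1 CPM in the same order. In RNA all LPS libraries of Hnrnph2 were above all DMSO libraries (log2 0.68 ± 0.13 SE, FDR 0.00055), and in RIP the groups overlapped (log2 0.68 ± 0.25 SE, FDR 0.0337). The RIP call was lost without DMSO RIP replicates 1, 2 or 4 (FDR 0.118, 0.105 and 0.0695) or LPS RIP replicates 2 or 3 (0.0606 and 0.178). Hnrnph2 overlaps Gla on the other strand. For Srsf5, whose values are given above, LPS RNA was above DMSO in every library (log2 0.52 ± 0.18 SE, FDR 0.0322), and no change was called in RIP (log2 -0.36, FDR 0.174). That Srsf5 call was lost without LPS RNA replicates 1, 3 or 4 (FDR 0.0864, 0.0651 and 0.0549) or DMSO RNA replicates 3 or 4 (0.0863 and 0.0751). Hnrnpk rose in both, by log2 0.35 ± 0.10 SE, FDR 0.0143 in RNA with no overlap and by log2 0.65 ± 0.21 SE, FDR 0.021 in RIP. The RIP call of Hnrnpk was lost without DMSO RIP replicates 2 or 4 (FDR 0.0688 and 0.0884) or LPS RIP replicate 3 (0.109), and with library totals the Hnrnpk values were 0.06 in RNA and 0.00 in RIP. Srsf7 rose in RNA at the margin (log2 0.33 ± 0.12 SE, FDR 0.0486) and passed in neither direction in RIP. Without LPS RNA replicates 1, 3 or 4, or DMSO RNA replicates 2, 3 or 4, its FDR lay between 0.0557 and 0.143.

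Among the genes that fell, Hnrnph3, a divergent member of the G-tract binding group, had the largest change and low counts. Hnrnph3 RNA stood at 14.6, 9.52, 7.04 and 7.56 CPM in DMSO, 3.38, 4.77, 6.32 and 5.3 in LPS, and 5.88, 5.95, 5.19 and 6.84 in LPS+TM7nox. In RIP, Hnrnph3 stood at 11.9, 11.1, 8.65 and 9.14 CPM in DMSO, 8.83, 6.14, 4.87 and 5.45 in LPS, and 9.81, 5.69, 7.43 and 6.57 in LPS+TM7nox, and IgG gave 6.73, 3.77 and 5.76 CPM in the same order. LPS lowered Hnrnph3 in RNA without overlap (log2 -0.96 ± 0.26 SE, FDR 0.00715), and in RIP with overlap (log2 -0.70 ± 0.23 SE, FDR 0.0198, lost without LPS RIP replicate 3 at FDR 0.0612). DMSO RNA replicate 1, the shallowest library, held the highest value. Hnrnpr, an RRM protein closely related to Syncrip, fell in both kinds of library. Hnrnpr RNA stood at 103, 91.5, 86.9 and 96.9 CPM in DMSO, 57.3, 51, 47.9 and 53.5 in LPS, and 52.6, 39.3, 35.6 and 36 in LPS+TM7nox. In RIP, Hnrnpr stood at 50.4, 53.7, 54.6 and 53.4 CPM in DMSO, 34, 30.9, 35.9 and 33.7 in LPS, and 30, 24.4, 23.5 and 21.1 in LPS+TM7nox, and IgG gave 93, 56.1 and 42.1 CPM in the same order. All LPS libraries of Hnrnpr lay below all DMSO libraries, in RNA (log2 -0.88 ± 0.14 SE, FDR 0.000149) and in RIP (log2 -0.68 ± 0.14 SE, FDR 0.00128), and in RIP the LPS+TM7nox libraries lay below those of LPS without overlap. Hnrnpr kept both calls in each of the 8 fits that left out 1 library of either group. Srsf10 fell in RNA (log2 -0.43 ± 0.13 SE, FDR 0.0141), a call lost without LPS RNA replicate 4 (FDR 0.0515). Srsf1 fell in RNA (log2 -0.27 ± 0.10 SE, FDR 0.0421) and RIP (log2 -0.51 ± 0.18 SE, FDR 0.0282). The Srsf1 call in RNA was lost in 7 of the 8 fits without 1 library, at FDR 0.0512 to 0.116, the exception being DMSO replicate 4. In RIP the Srsf1 call was lost without LPS RIP replicates 1 or 4 (FDR 0.0565 and 0.0621) or DMSO RIP replicate 4 (0.0591).

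In RIP, LPS against DMSO gave 4 members higher and 3 lower, against 23.5% and 21.2% (44.7% in either direction) of the 13614 genes tested. Besides Hnrnph2 and Hnrnpk, the higher ones were Hnrnpc (log2 0.67 ± 0.17 SE, FDR 0.00441), whose groups did not overlap, and Hnrnpu (log2 0.56 ± 0.20 SE, FDR 0.0322). Hnrnpu lost its call in 6 of 8 fits without 1 library (FDR 0.0615 to 0.144), all but those without LPS RIP replicates 1 or 4. With the replicate block the split was 6 and 5, adding Srsf6 and Hnrnpab above and Srsf10 and Hnrnph1 below (30.7% and 28.6% of all genes). With library totals it was 0 and 17, against 9.54% and 47.2% of all genes, after a shift of -0.63 in their median, and Hnrnpu turned to -0.09. The count was 3 without LPS RIP replicate 3 or DMSO RIP replicate 4, and 4 without DMSO RIP replicate 2. The macrophage markers moved here too, with 6 of 10 called higher and 1 lower and a summed level of 2270 to 3250 CPM against 1230 to 1960 CPM in DMSO. Both tested markers of other cell types, Cdh5 (log2 2.44) and Pecam1 (2.24), were called higher, with summed levels of all 17 of 3.26 to 5.38 CPM against 0.88 to 1.65 CPM. The part of either list in the result was not tested.

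**Figure D4:**
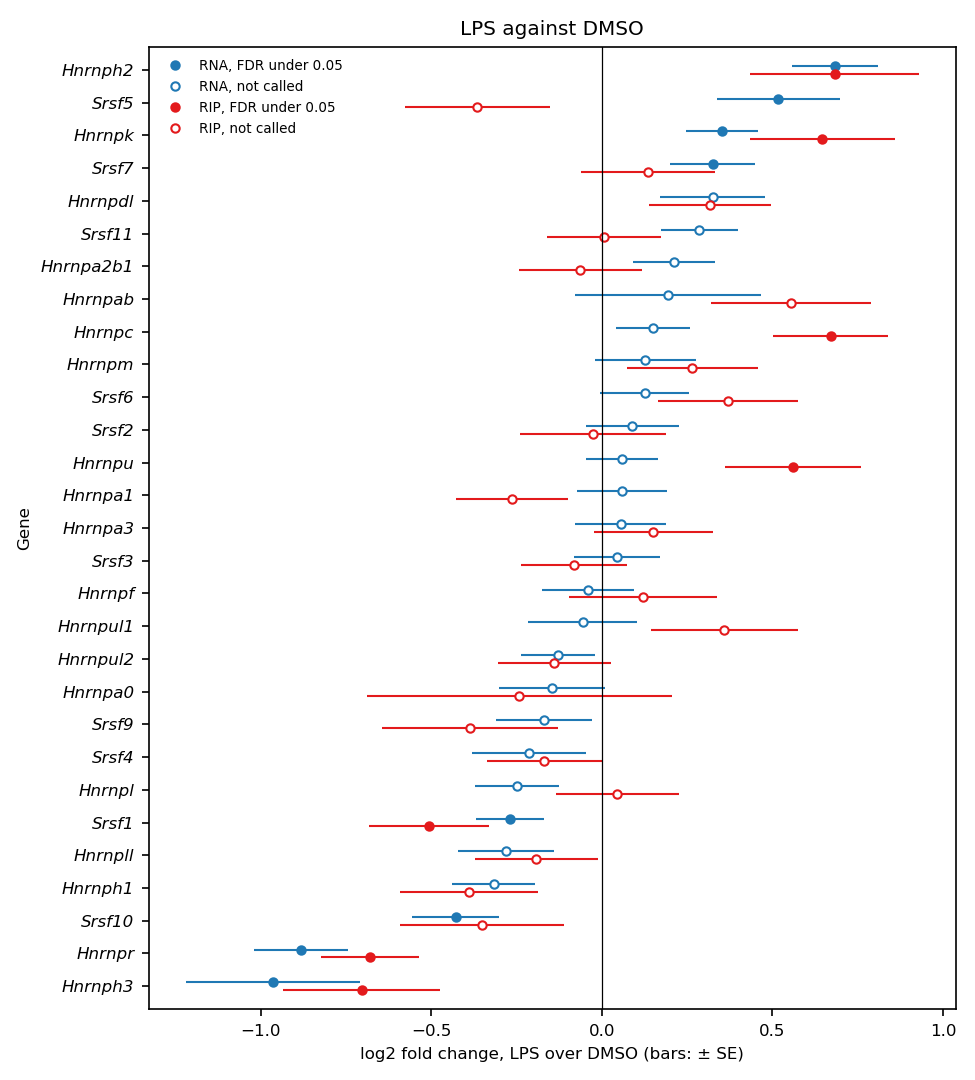
LPS against DMSO in total RNA and in RIP for the 29 members, as log2 fold change with its standard error, filled where the FDR was under 0.05 and ordered by RNA. Hnrnpr and Hnrnph3 fall in both and Hnrnph2 and Hnrnpk rise in both, while Hnrnpc and Hnrnpu are called in RIP and not in RNA. With library totals the RIP values of Hnrnph2 and Hnrnpk are 0.03 and 0.00.

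With TM7nox added to LPS, 7 members were lower in total RNA. Srsf1, Srsf3, Srsf7, Srsf9 and Srsf10 were called lower than in LPS, 5 of the 10 SR genes tested, and among 19 hnRNP genes Hnrnpll and Hnrnpu were. No member was called higher. Over the 29 members this was 0 higher and 7 lower, against 7.37% and 6.4% (13.8% in either direction) of the 12369 genes tested. Of the 29 values 27 were negative, with a median of -0.31 against 0.00 over all genes. With the replicate numbers as a block 18 members were called lower and none higher, against 12.7% and 12.3% of all genes (25% in either direction). The 11 added were Srsf2, Srsf11, Hnrnpa0, Hnrnpa2b1, Hnrnpab, Hnrnpc, Hnrnpf, Hnrnph2, Hnrnpk, Hnrnpr and Hnrnpul1. The macrophage markers moved in the same comparison, with 4 of 10 called lower and a summed level of 3610 to 6340 CPM against 5150 to 7100 CPM in LPS, and their part in the result was not tested.

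Srsf9 fell furthest, with all LPS+TM7nox libraries below all LPS libraries (log2 -0.65 ± 0.14 SE, FDR 0.00707). Srsf7, which had risen with LPS, was lower (log2 -0.62 ± 0.12 SE, FDR 0.00439), as was Srsf3 (log2 -0.54 ± 0.13 SE, FDR 0.0117), both without overlap. Srsf1 (log2 -0.51 ± 0.10 SE, FDR 0.00339) and Hnrnpu (log2 -0.44 ± 0.11 SE, FDR 0.012) were also separate in every library. Hnrnpu RNA held 615, 642, 671 and 734 CPM in LPS and 473, 487, 499 and 493 CPM in LPS+TM7nox. These 5 genes kept their calls in each of the 8 fits that left out 1 library of either group. Without the low-count filter 4 SR genes were called lower and no hnRNP gene, so Hnrnpu lost its call there (3.1% of all genes higher and 2.91% lower). Srsf10 (log2 -0.47 ± 0.13 SE, FDR 0.0222) lost its call without LPS RNA replicate 1 (FDR 0.0657) or LPS+TM7nox RNA replicates 3 or 4 (0.0558 and 0.0775). Hnrnpll (log2 -0.49 ± 0.14 SE, FDR 0.0333), whose groups overlapped, lost it in 7 of the 8 such fits, at FDR 0.0554 to 0.111, the exception being LPS replicate 1. Among replicates 1 and 2 alone no member was called, against 0.786% of all genes higher and 0.561% lower. Among replicates 3 and 4 alone 15 were called lower, against 14.3% of all genes higher and 13.5% lower.

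Against DMSO, the combined treatment left 13 members lower in RNA and 2 higher, with 23.6% and 23.7% of all genes called in those directions and 47.3% in either. Hnrnpr was the lowest (log2 -1.24 ± 0.14 SE, FDR 5.98e-06), followed by Srsf10 (log2 -0.90 ± 0.13 SE, FDR 4.7e-05) and Srsf9 (log2 -0.82 ± 0.14 SE, FDR 0.000278). Srsf1, Hnrnpll, Hnrnph3, Hnrnpa0, Hnrnph1, Srsf3, Srsf4, Hnrnpul1, Hnrnpu and Hnrnpl made up the rest, from -0.78 to -0.37. Srsf5 (log2 0.52 ± 0.18 SE, FDR 0.0272) and Hnrnph2 (log2 0.37 ± 0.13 SE, FDR 0.0256) were the higher ones. The calls of Srsf4, Srsf5, Hnrnph2, Hnrnph3, Hnrnpl and Hnrnpul1 were each lost without some single libraries. For Srsf4 these were DMSO replicates 1, 2 or 4 or LPS+TM7nox replicates 2 or 3 (FDR 0.0516 to 0.0842), and for Srsf5 DMSO replicates 3 or 4 or LPS+TM7nox replicate 1 (0.053 to 0.0741). For Hnrnph2 they were DMSO replicate 3 or LPS+TM7nox replicates 3 or 4 (0.0668 to 0.0846), and for Hnrnph3 DMSO replicates 1 or 2 or LPS+TM7nox replicates 1, 2 or 3 (0.0622 to 0.0928). Hnrnpl lost it without DMSO replicates 2 or 4 or LPS+TM7nox replicates 1, 3 or 4 (0.061 to 0.111), and Hnrnpul1 without DMSO replicate 1 or any LPS+TM7nox replicate (0.0545 to 0.098). For Hnrnpul1 the value went from -0.44 to -0.23 (FDR 0.098) without DMSO RNA replicate 1, and that of Hnrnph3 from -0.69 to -0.44 (FDR 0.0903). With library totals the split was 0 higher and 24 lower, against 15.1% and 36.9% of all genes, after a shift of -0.32 in their median. The replicate block added Srsf7, Hnrnpab and Hnrnpf to the lower members. Of 10 macrophage markers 4 were called higher and 2 lower in this comparison, with summed levels of 3610 to 6340 CPM against 5320 to 6580 CPM in DMSO, and their part in the result was not tested.

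**Figure D5:**
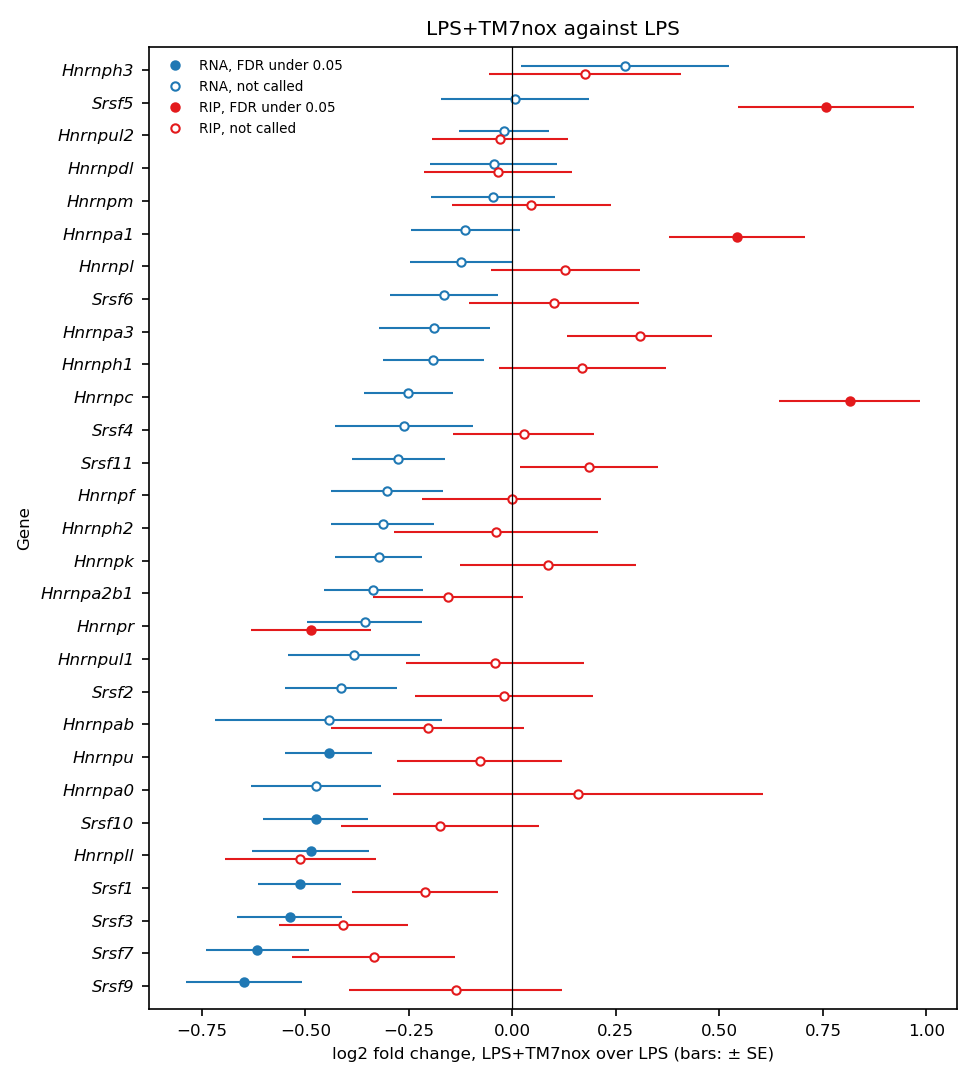
LPS+TM7nox against LPS in total RNA and in RIP for the 29 members, as log2 fold change with its standard error, filled where the FDR was under 0.05 and ordered by RNA. RNA values are negative for 27 members, and RIP values are called above 0 for Hnrnpc, Srsf5 and Hnrnpa1 and below 0 for Hnrnpr.

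In RIP, for LPS+TM7nox against LPS, Hnrnpc, Srsf5 and Hnrnpa1 were called higher and Hnrnpr lower, 3 and 1 of 29, against 8.64% and 7.61% (16.2% in either direction) of the 13614 genes tested. Hnrnpc (log2 0.81 ± 0.17 SE, FDR 0.00417), Srsf5 (log2 0.76 ± 0.21 SE, FDR 0.0233) and Hnrnpa1 (log2 0.54 ± 0.16 SE, FDR 0.0334) rose, each with no overlap between the groups. Hnrnpr fell, also without overlap (log2 -0.49 ± 0.14 SE, FDR 0.0316). Hnrnpc kept its call in each of the 8 fits without 1 library. Srsf5 lost it without LPS RIP replicates 1, 2 or 4 or LPS+TM7nox RIP replicate 4 (FDR 0.0518 to 0.0753), and Hnrnpa1 without the same libraries or LPS+TM7nox RIP replicate 2 (0.0614 to 0.0903). Hnrnpr lost it in 6 of the 8 fits (0.0658 to 0.0964), all but those without LPS RIP replicate 2 or LPS+TM7nox RIP replicate 1. The Hnrnpr call was also lost with library totals and without the low-count filter. The count was 1 without LPS RIP replicate 1, LPS RIP replicate 4 or LPS+TM7nox RIP replicate 4, and 2 without LPS RIP replicate 2 or LPS+TM7nox RIP replicate 2. With the replicate block Srsf3, Srsf7 and Hnrnpll were called lower too, 3 and 4 in all (16.6% and 17% of all genes), and DESeq2 also called Srsf3 lower (-0.41, adjusted p 0.0203). In the same comparison 5 of 10 macrophage markers were called lower and none higher, with a summed level of 932 to 2070 CPM against 2270 to 3250 CPM in LPS, and their part in the result was not tested.

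Against DMSO in RIP, LPS+TM7nox gave 4 members higher and 4 lower, with 25.1% and 23.1% of all genes called, 48.1% in either direction. Hnrnpc reached 661 ± 99.2 CPM against 225 ± 20.1 CPM (SD, n = 4 each), log2 1.49 ± 0.17 SE, FDR 4e-06. Hnrnpk (log2 0.73 ± 0.21 SE, FDR 0.00987), Hnrnph2 (log2 0.64 ± 0.25 SE, FDR 0.0415) and Hnrnpa3 (log2 0.46 ± 0.17 SE, FDR 0.0407) were also higher. The lower members were Hnrnpr (log2 -1.17 ± 0.15 SE, FDR 9.02e-06), Srsf1 (log2 -0.72 ± 0.18 SE, FDR 0.00339), Hnrnpll (-0.70) and Srsf3 (-0.49). Hnrnph2 lost its call without any single library but DMSO RIP replicate 3 or LPS+TM7nox RIP replicate 1, at FDR up to 0.146, and Hnrnpa3 without any but DMSO RIP replicate 4, at FDR up to 0.18. With library totals the split was 1 and 17, against 10.7% and 48.3% of all genes, after a shift of -0.63 in their median. Hnrnph2 and Hnrnpa3 then stood at -0.00 and -0.18. The replicate block gave 7 and 7, adding Srsf6, Hnrnpm and Hnrnpu above and Srsf9, Srsf10 and Hnrnph3 below (31.8% and 29.9% of all genes). Among the macrophage markers 3 were called higher and 1 lower, and both tested markers of other cell types, Cdh5 (2.54) and Pecam1 (1.54), were called higher, with summed levels of all 17 of 3.18 to 4.77 CPM against 0.88 to 1.65 CPM. Their part in the result was not tested.

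Whether recovery relative to RNA changed with treatment was tested as an interaction over the 24 RNA and RIP libraries. In simulated data this fit called 31% of genes changed by log2 1 with LPS, so the absence of a call does not show that recovery was unchanged. For LPS against DMSO no member was called, while 0.0419% of all 14311 genes were (0.014% higher and 0.028% lower). For LPS+TM7nox against LPS no member was called either, with 0.00699% of all genes called. At an unadjusted p under 0.05 there were 2 members for LPS against DMSO and 5 for LPS+TM7nox against LPS. The share of all genes at that looser threshold was not counted, so these 2 numbers have no background beside them. DESeq2 called 0 and 1 member in these comparisons, which share the LPS libraries. It called 0.238% of all genes higher and 0.224% lower with LPS, and 0.014% and 0.00699% with TM7nox. The members at an unadjusted p under 0.05 for LPS against DMSO were Srsf5 (-1.003) and Hnrnpa1 (-0.44). For LPS against DMSO, 10 of 29 values were positive with a median of -0.06 against 0.02 over all genes. For LPS+TM7nox against LPS, 26 of 29 values were positive with a median of 0.31 against 0.00 over all genes. Hnrnpc had the largest value of the members, which was not called (log2 1.08 ± 0.21 SE, FDR 0.158), and its same-numbered RIP to RNA ratios were 2.09, 2.35, 2.39 and 2.08 in LPS and 4.03, 5.67, 4.19 and 5.42 in LPS+TM7nox, with no overlap. With the replicate block the Hnrnpc change was 1.08 at FDR 0.00133, and its FDR over all settings tried ran from 2.03e-05 to 1. It was called in 5 of those 23 settings: the block, DESeq2, library totals (FDR 0.03), and the fits without LPS+TM7nox RIP replicate 1 (0.00781) or LPS RIP replicate 3 (0.0377). The other members at an unadjusted p under 0.05 with TM7nox were Hnrnpa1 (0.68), Srsf5 (0.78), Srsf11 (0.47) and Hnrnpa3 (0.52), each at FDR 0.871.

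Other genes of the splicing machinery were counted in the same way, against 37% of all genes called higher and 33.4% lower in DMSO; whether these groups differ from each other was not tested. Among 33 tested splicing regulators of other names, 25 were called higher in RIP than in RNA in DMSO and 4 lower, with a median of 2.34, and Elavl1 itself stood at 5.00 and Rbfox2 at 4.70. Among 60 core spliceosome genes, which encode snRNP proteins and catalytic factors, 11 were higher and 40 lower with a median of -1.05, led by Prpf39 (3.65) and Sf1 (2.61) above and Snrpd2 (-2.02) and Plrg1 (-1.997) below. Of 10 tested kinases and importins that act on SR proteins, 6 were higher and 3 lower, and Srpk1, a kinase that phosphorylates SR domains, reached 4.17. The 20 SR-related coactivators were split 6 and 9, with Luc7l2 (2.27) and Luc7l (2.21) at the top.

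In total RNA, 1 of 20 SR-related coactivators (Tra2a, -0.61), 1 of 10 kinases and importins, 3 of 59 core spliceosome genes and 6 of 33 other regulators were called lower in LPS+TM7nox than in LPS, and 0, 2, 2 and 2 were called higher, against 6.4% and 7.37% of all genes. Whether these groups differ from the SR genes was not tested. Snrpd1, a core Sm protein, fell most in the core group (-1.05), and Mbnl1, which regulates developmental exon choice, among the regulators (-0.90), while its paralogue Mbnl2 rose (0.63). The SR protein kinase Srpk2 fell with LPS (-1.45) and was 0.59 higher with TM7nox than with LPS alone. In RIP, 20 of 60 core spliceosome genes were called higher and 2 lower with LPS than with DMSO, against 23.5% and 21.2% of all genes.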

How the data were processed

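Total RNA, anti-HuR RIP and IgG libraries were sequenced from the 9 groups given above. The authors deposited raw counts per gene for 27 libraries in 1 table. The submitters' processing notes name FastQC 0.11.9, STAR, HTSeq, DESeq2 and GRCm39; whether counting used strand, and on which annotation release, is not stated there or in the labels. Differences were tested with edgeR 4.0.16 (quasi-likelihood F test, TMM scaling, filterByExpr with a minimum count of 10) in R 4.3.3, with Benjamini-Hochberg adjustment over all genes tested and calls at an FDR under 0.05. Separate fits covered 12 RNA libraries, 12 RIP libraries, 24 of both, and 15 of RIP and IgG with treatment as a covariate. CPM were computed on 1 TMM scale over the 27 libraries. Per-length levels divide by the union of exons in GENCODE M39, which matched 93.2% of gene IDs and all 30 members. The fits were tested on simulated data. Of 100 genes changed by log2 1, 79% were called in RNA for LPS against DMSO and 89% for anti-HuR against IgG. For the change of RIP over RNA with LPS this was 31%, and 95% for changes of log2 2.

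All members are named; values in every library are given for the members with the largest called changes, and for those highest and lowest per length, and in the other splicing lists up to 2 called genes per direction are named. The members and lists were chosen with earlier results of these data known. Same-numbered replicates of compared groups deviated together, with every correlation above 0.1 (lowest 0.26, DMSO and LPS RNA). The main fits did not use this pairing. Only the replicate block took the numbers to pair the samples, which rests on the data and not on the labels. Replicates differed by more than counting noise, at a chi-square of 38 to 213 per gene. Alternatives were RLE factors, library totals, DESeq2 1.42.0, no low-count filter, a replicate block, replicates 1 and 2 or 3 and 4 alone, and leaving out each library. Sequence windows are printed for 10 of the 30 members, chosen for their recovery; the other windows are not reported here.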

Additional observations from a re-analysis of the deposited data

Results flagged for a closer look

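In groups of 4 libraries, 1 library stood apart from the other 3 by Dixon's test in 7 of 174 groups of members; chance gives about 1 in 20. Replicate 4 of DMSO RIP was high for Hnrnpa0, at 1525 CPM against 649.9 CPM in the nearest library, and low for Srsf3, at 105.5 against 113. Hnrnpa0 was also high in LPS+TM7nox RNA replicate 4 (63.22 against 46.02 CPM). Srsf6 was low in LPS RIP replicate 4 (413.9 against 628.9 CPM) and Hnrnpa1 high in LPS RIP replicate 3 (432.4 against 359 CPM). Hnrnpdl was low in LPS+TM7nox RNA replicate 1 (54.89 against 82.31 CPM), and Hnrnpul1 was high in DMSO RNA replicate 1, the shallowest library (380.1 against 265.4 CPM).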

How the results depend on the processing

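Of 840 alternative values of 54 single-gene results (in each comparison up to 3 called members per direction, those with the largest changes), 745 kept direction and call, 94 kept direction and lost the call (45 of them with 1 library left out, none with the replicate block), and 1 turned: Hnrnph2 in RIP, LPS+TM7nox against DMSO, was -0.002 with library totals. Outside these 54, further called members turned with library totals: Hnrnpu in RIP with LPS (-0.085), Hnrnpa3 in RIP, LPS+TM7nox against DMSO (-0.182), and those named with RIP over RNA and with IgG. Counts of called members moved as follows, and the cause was not tested. With library totals they were 24 for RNA LPS+TM7nox against DMSO, 17 for RIP LPS against DMSO, 18 for RIP LPS+TM7nox against DMSO and 1 for the change of RIP over RNA with TM7nox. For that change 0.014% of all genes were called higher and 0% lower, and the other shares are given with the results. DESeq2 gave 11 for RNA LPS+TM7nox against LPS (9.06% of all genes higher and 9.43% lower) and 1 for that change (0.014% and 0.00699%). Without the low-count filter, RNA gave 4 for LPS against DMSO, 4 for LPS+TM7nox against LPS and 9 for LPS+TM7nox against DMSO. The shares of all 30529 genes then tested were 8.96% higher and 8.3% lower, 3.1% and 2.91%, and 10.4% and 9.24%. RIP gave 2 for LPS+TM7nox against LPS, with 3.07% of 36534 genes higher and 3.18% lower. The replicate block gave 18 for RNA LPS+TM7nox against LPS, 11, 7 and 14 for RIP LPS against DMSO, LPS+TM7nox against LPS and LPS+TM7nox against DMSO, and 1 for the change with TM7nox. For that change 0.014% of all genes were called higher and 0% lower, and the shares for RNA and RIP are given with the results. Beyond the calls given there, the block changed no other call. Replicates 1 and 2 alone gave, in the order LPS against DMSO, LPS+TM7nox against LPS and LPS+TM7nox against DMSO, 2, 0 and 4 in RNA and 1, 0 and 2 in RIP. Of all genes, 8.41% were then called higher and 4.97% lower, 0.786% and 0.561%, and 10.5% and 7.48% in RNA. In RIP these shares were 12.1% and 11.9%, 3.3% and 2.29%, and 16.8% and 15.1%. Replicates 3 and 4 alone gave 13 and 15 for the first 2 in RNA, and 2, 0 and 4 in RIP. The shares of all genes were 29.3% higher and 29.3% lower, and 14.3% and 13.5% in RNA. In RIP they were 20.4% and 20.4%, 4.36% and 3.51%, and 20.3% and 19.5%. Leaving out 1 library gave 4 to 8, 5 to 8 and 11 to 14 in RNA and 3 to 7, 1 to 4 and 6 to 9 in RIP in that order, 20 to 21, 21 to 23 and 20 to 21 for RIP over RNA in DMSO, LPS and LPS+TM7nox, 21 to 24 against IgG, and 0 to 0 and 0 to 1 for the changes with LPS and TM7nox.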

Other observations

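Mbnl1 and Mbnl2, paralogous regulators of developmental exon choice, had opposite calls in RIP for LPS+TM7nox against DMSO: Mbnl2 was higher (log2 1.33 ± 0.20 SE, FDR 4.78e-05) and Mbnl1 lower (-1.20 ± 0.26 SE, FDR 0.0014). Total RNA moved the same way in that comparison, with Mbnl2 at 0.82 (FDR 0.000464) and Mbnl1 at -1.65 (FDR 2.35e-05). Against LPS, Mbnl2 was higher in RIP (1.12 ± 0.20 SE, FDR 0.00138) and Mbnl1 was not called (-0.64 ± 0.26 SE, FDR 0.105). Srpk2, a kinase of SR domains, fell with LPS in RIP (-1.33) and was higher in LPS+TM7nox than in LPS (0.75 ± 0.16 SE, FDR 0.00486). Its total RNA moved the same way, by -1.45 and 0.59. Among core spliceosome genes, Snrpd2 rose in RIP with LPS (1.06) and was lower in LPS+TM7nox than in LPS (-1.18, FDR 0.00386), at a mean of 10.06 CPM.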
